A study of Homo sapiens with 4 samples.

Results

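The genes described here encode the machinery that licenses replication origins and copies DNA at the fork. The 50 genes were taken by name from a list that runs from origin recognition through the replicative helicase, the polymerases and the clamp loader to fork protection. All 50 were among the 29655 gene names in the tables and all 50 were among the 11904 protein-coding genes tested. Each of the 50 reached the minimum of 0.5 RPKM, a level scaled to library size and exon length, in both Control libraries, so none was tested only because its level was high under the PRMT5 KD label.

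The RNA-seq libraries came from UMSCC74B, a cultured cell line of head and neck squamous carcinoma (HNSCC). PRMT5 is the enzyme that places symmetric dimethyl marks on arginine residues of target proteins, and the comparison asks which transcripts differ when it is silenced. The groups were 2 libraries from cells given control shRNA, labelled Control, and 2 from cells given PRMT5 shRNA, labelled PRMT5 KD, all collected after 72 h. The genotype labels are WT for Control and PRMT5 KD for the other group, the labels describe transfected plasmids whereas the paper's methods describe lentiviral transduction, and nothing states whether replicates were separate cultures, so p-values may measure only technical spread.

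Before a cell divides, the origin recognition complex, CDC6 and CDT1 load rings of the MCM2 to MCM7 helicase on DNA during G1, which licenses origins. In S phase the kinase CDC7 with DBF4 and several firing factors turn loaded rings into active helicases by adding CDC45 and the GINS complex. Polymerase alpha-primase then lays down primers, polymerases delta and epsilon extend them on the PCNA clamp, and many of these genes are known targets of E2F transcription factors and are low in resting cells.

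The Control libraries held 52185289 and 65964558 counts, and those labelled PRMT5 KD held 64233361 and 55328869. Of these counts ribosomal RNA took 15.3% and 14.2% in the Control libraries, 26.2% in PRMT5 KD replicate 1 and 18.02% in PRMT5 KD replicate 2. The targeted transcript went against the label, because PRMT5 stood at 94.2 and 84.2 CPM (counts scaled to the size of each library) in Control and at 132 and 149 CPM under the PRMT5 KD label. Its log2 fold change was 0.66 (SE 0.12, FDR = 0.00548, the edgeR p-value adjusted over all genes tested), so groups are named here by their labels and every direction below is one between labels. Per the labels and the paper, PRMT5 silencing was also assessed by immunoblot, a protein measure that was not analysed here. The paper reports that the blot bore out the silencing by PRMT5 shRNA, a result in the direction of the labels. Whether the blot used the same cultures as these libraries is not stated, and an exchange of labels was not tested. The squamous label was met in part: of 10 markers 4 could be tested, with PKP1 called higher, TP63 and DSG3 called lower and LAMB3 not called. TP63 had a mean RPKM of 0.809 in Control and 0.318 under the PRMT5 KD label, so it was tested through its Control level alone. KRT5 was at 0 CPM in 3 libraries and at 0.0836 CPM in PRMT5 KD replicate 2, and CDH1 lay between 0.0420 and 0.227 CPM, while LAMB3, a laminin chain of epithelial cells, lay between 1182 and 1501 CPM. Of 10 markers of other cell types, 5 could be tested (COL1A1, COL1A2, COL3A1, PDGFRB and PECAM1) and all 5 were called lower under the PRMT5 KD label. Their log2 fold changes were -1.95, -3.71, -5.25, -2.38 and -5.27 in that order. COL3A1 and PECAM1 had a mean RPKM of 18.4 and 1.11 in Control but of 0.482 and 0.0284 under the PRMT5 KD label. They reached the minimum of 0.5 RPKM only through Control, where they were high, so their calls could hardly have gone the other way. The summed level of the 10 was 452 and 551 CPM in Control and 51.9 and 67.1 CPM under the PRMT5 KD label, with the T cell gene CD3E at 0 in all 4 libraries. The part of these shifts in the results below was not tested, and neither was the identity of the cells in each library.

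Most of the replication genes rose under the PRMT5 KD label. Of the 50 genes, 46 were called higher (92%), against 21.2% of all genes tested, where a call needs an FDR under 0.05 and a log2 fold change past 0.5 in either direction. Only RFC1 was called lower, where 24.3% of all genes tested were called lower, and ORC2, ORC4 and POLD2 were not called. At a log2 fold change of at least 1, 40 of the 50 (80%) were called higher, against 8.67% of all genes tested. The median log2 fold change of the 50 genes was 1.65, with a range from -0.60 to 3.03, and the median over all genes tested was -0.0073. With counts scaled by library totals alone the median over all genes moved to 0.17, that of the 50 genes to 1.82, and the share of all genes called higher to 29.5%.

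Summed over the 50 genes, the level was 1440 and 1322 CPM in Control and 3685 and 4012 CPM under the PRMT5 KD label. Both labelled libraries thus stood well above both Control libraries, with means of 3849 ± 232 and 1381 ± 83.4 CPM (SD, n = 2 each) and a ratio of 2.79. In 47 of the 50 genes (94%) both PRMT5 KD libraries lay above both Control libraries, against 39.9% of all genes tested. Only ORC2 and ORC4 had groups that overlapped. Of the 46 genes called higher, 37 were higher in PRMT5 KD replicate 2 than in replicate 1, and 37 were higher in Control replicate 1 than in replicate 2. The same shares over all genes tested were not computed, so these counts cannot be read as particular to the replication genes. An exact permutation test with 2 libraries a group cannot go below p = 0.333, so all FDR values come from the edgeR model fitted across all genes. In bulk RNA a larger share of cells in S phase and more RNA per cell cannot be told apart, and MKI67, a gene of cycling cells, was at 295 and 228 CPM in Control and at 826 and 756 CPM under the PRMT5 KD label.

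**Figure D1:**
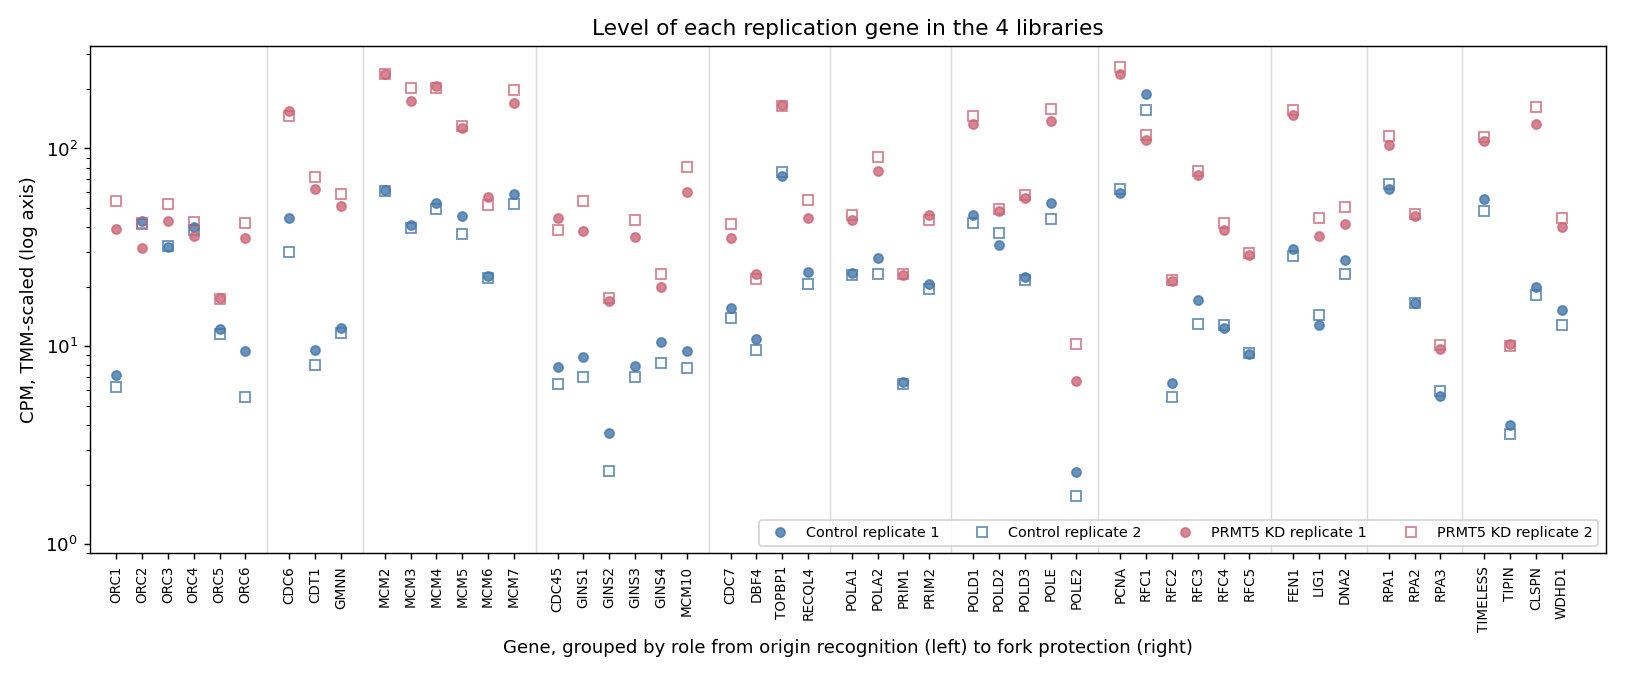
Level of each of the 50 genes in CPM (log axis), with genes ordered by role on the horizontal axis and each of the 4 libraries as a point. The PRMT5 KD points lie above the Control points for 47 of the 50 genes, overlap them for ORC2 and ORC4, and lie below them for RFC1.

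**Figure D2:**
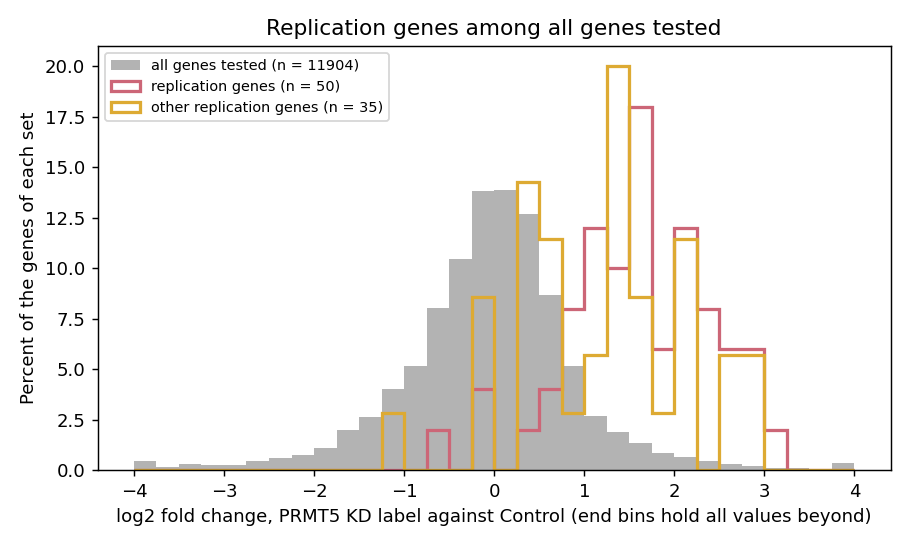
Distribution of log2 fold changes (horizontal axis, PRMT5 KD label against Control) as the percent of genes in each set (vertical axis), for all 11904 genes tested, the 50 replication genes and 35 other replication genes. The 50 genes are centred on a median of 1.65, and 41 of them lie in the top 10% of all genes, which begins at 0.94.

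The promoters of 6 of these genes are shown first, because many of the genes described here are textbook E2F targets and the windows let that be read beside the values. RefSeq promoters, each 300 bases long from 250 before to 50 after the start site on GRCh38.p14, were at hand for 42 of the 50 genes (53 promoters). The letters TTTCCCGC or TTTGGCGC, which the E2F family is known to bind, were searched on both strands. They occurred in at least 1 promoter of 19 of the 42 genes (45.2%), against 4.73% of the genes tested that had a promoter. By promoter the share was 35.8% of the 53, against 3.43% for promoters of genes tested and 2.27% of all 35116 promoters. Capitals mark these letters in the lines below, and GCGGGAAA is TTTCCCGC read on the opposite strand. CDT1 and CLSPN had the largest log2 fold changes among genes with the letters, PCNA had the highest mean RPKM of the 50, MCM6 held the letters at 2 places, and ORC2 and RFC1, which were not called higher, held none.

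CDT1 (chr16:88803539-88803808, + strand): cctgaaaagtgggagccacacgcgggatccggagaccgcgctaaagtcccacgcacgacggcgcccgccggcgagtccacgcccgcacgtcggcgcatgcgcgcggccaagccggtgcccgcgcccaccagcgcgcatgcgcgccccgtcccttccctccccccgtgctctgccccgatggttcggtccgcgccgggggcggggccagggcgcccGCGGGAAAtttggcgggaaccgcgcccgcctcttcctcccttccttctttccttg
CLSPN (chr1:35769959-35770228, - strand): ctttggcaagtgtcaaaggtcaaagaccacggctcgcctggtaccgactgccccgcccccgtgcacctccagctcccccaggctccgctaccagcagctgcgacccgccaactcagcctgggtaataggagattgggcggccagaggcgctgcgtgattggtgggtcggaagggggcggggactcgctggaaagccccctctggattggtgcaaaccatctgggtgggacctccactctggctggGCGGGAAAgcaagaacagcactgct
PCNA (chr20:5126603-5126872, - strand): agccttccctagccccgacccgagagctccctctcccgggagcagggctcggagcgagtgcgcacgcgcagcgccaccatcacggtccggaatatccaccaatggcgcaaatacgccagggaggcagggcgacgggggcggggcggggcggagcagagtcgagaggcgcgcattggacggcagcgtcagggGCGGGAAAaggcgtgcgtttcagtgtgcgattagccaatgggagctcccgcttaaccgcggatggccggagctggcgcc
MCM6 (chr2:135876424-135876693, - strand): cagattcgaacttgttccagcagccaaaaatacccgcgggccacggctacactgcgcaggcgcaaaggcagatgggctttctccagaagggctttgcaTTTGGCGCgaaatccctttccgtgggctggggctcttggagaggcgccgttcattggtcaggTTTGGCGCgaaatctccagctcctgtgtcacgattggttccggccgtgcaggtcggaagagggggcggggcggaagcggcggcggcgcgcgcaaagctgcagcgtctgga
ORC2 (chr2:200963641-200963910, - strand): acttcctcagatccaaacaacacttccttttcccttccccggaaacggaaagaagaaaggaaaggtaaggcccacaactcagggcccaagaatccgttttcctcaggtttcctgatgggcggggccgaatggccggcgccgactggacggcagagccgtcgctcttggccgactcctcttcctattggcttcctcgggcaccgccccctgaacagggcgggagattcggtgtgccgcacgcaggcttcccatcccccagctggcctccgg
RFC1 (chr4:39366343-39366612, - strand): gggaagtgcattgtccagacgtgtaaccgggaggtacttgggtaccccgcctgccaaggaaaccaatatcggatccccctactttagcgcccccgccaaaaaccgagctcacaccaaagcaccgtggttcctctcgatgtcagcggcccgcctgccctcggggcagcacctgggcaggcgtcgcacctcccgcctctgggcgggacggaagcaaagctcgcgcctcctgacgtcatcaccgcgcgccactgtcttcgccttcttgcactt

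Each line reads 5′ to 3′ along its gene and stops 20 bases after the start site. The capitals begin 35 bases before the start site in CDT1, 5 before it in CLSPN, 59 before it in PCNA and 152 before it for the nearer to the 5′ end of the MCM6 pair. The 19 genes with the letters had a median log2 fold change of 2.02 (0.58 to 2.95) and the 23 without them a median of 1.65 (-0.60 to 3.03), and these ranges overlapped. MCM10 and ORC1, with log2 fold changes of 3.03 and 2.81, were among the 23. The letters CCAAT, known to be bound by NF-Y, occurred in 24 of the 42 genes (57.1%) against 43.95% of the genes tested. By promoter the share was 52.8% of the 53, against 34.9% for promoters of genes tested and 34.6% of all promoters. TTTGAA, the letters of the cell cycle homology region, occurred in DBF4 alone (2.38% of the 42 genes) against 13.8% of the genes tested. By promoter the share was 1.89% of the 53, against 10.5% for promoters of genes tested and 15.2% of all promoters. A match is a description of the letters and not of a bound site.

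The origin recognition complex marks origins for licensing, and its 6 subunits did not move together. ORC1, the largest subunit, an ATPase known to be made anew in each cycle, was at 7.17 and 6.19 CPM in Control and at 39.1 and 54.5 CPM under the PRMT5 KD label. These groups lay far apart, with a log2 fold change of 2.81 (SE 0.20, FDR = 0.000328). ORC6, the smallest subunit, rose by a log2 fold change of 2.38 (SE 0.28, FDR = 0.00151). ORC3, a core subunit, was at 31.7 and 32.1 CPM in Control and at 43.0 and 52.6 CPM under the PRMT5 KD label. Its groups did not overlap and it was called higher at 0.58 (SE 0.14, FDR = 0.0122).

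ORC5, another core subunit, was at 12.3 and 11.6 CPM in Control and at 17.6 and 17.3 CPM under the PRMT5 KD label. It lay just inside the threshold at a log2 fold change of 0.55 (SE 0.13, FDR = 0.0142). ORC3 and ORC5 both lost their call after offsets for exon length and GC content (0.48 and 0.45) and when either Control library was left out, and ORC3 also without PRMT5 KD replicate 2 (0.44). ORC2 was at 42.9 and 41.4 CPM in Control and at 31.5 and 42.1 CPM under the PRMT5 KD label. PRMT5 KD replicate 2 fell between the Control values and only replicate 1 was low, and the log2 fold change was -0.19 (SE 0.16, FDR = 0.334). ORC4 was at 40.1 and 38.9 CPM in Control and at 35.9 and 42.6 CPM under the PRMT5 KD label. The PRMT5 KD libraries bracketed the Control libraries, and the log2 fold change of -0.0084 (SE 0.13, FDR = 0.963) changed sign with the scaling.

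Per kilobase of exon the complex changed its order. ORC1 stood at 0.388 and 0.346 times the median RPKM of ORC2 to ORC5 in the Control libraries and at 2.47 and 2.91 times under the PRMT5 KD label. ORC6 stood at 0.371 and 0.223 times that median in Control and at 1.62 and 1.63 times under the PRMT5 KD label. In RPKM the mean of ORC1 went from 2.14 to 14.99 and that of ORC6 from 1.74 to 8.98, so the pair with the lowest RPKM in Control became the highest and the third highest under the PRMT5 KD label. RPKM here divides by the union of all annotated exons, which understates genes with many alternative exons. With the length of the longest transcript, the ratio for ORC1 was 0.287 and 0.257 in the Control libraries, against 1.57 and 1.91 in those labelled PRMT5 KD. For ORC6 it was 0.645 and 0.389 in the Control libraries, against 2.41 and 2.51 in those labelled PRMT5 KD. Both were again the lowest pair in Control, and under the PRMT5 KD label ORC6 was then the highest and ORC1 the third.

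**Figure D3:**
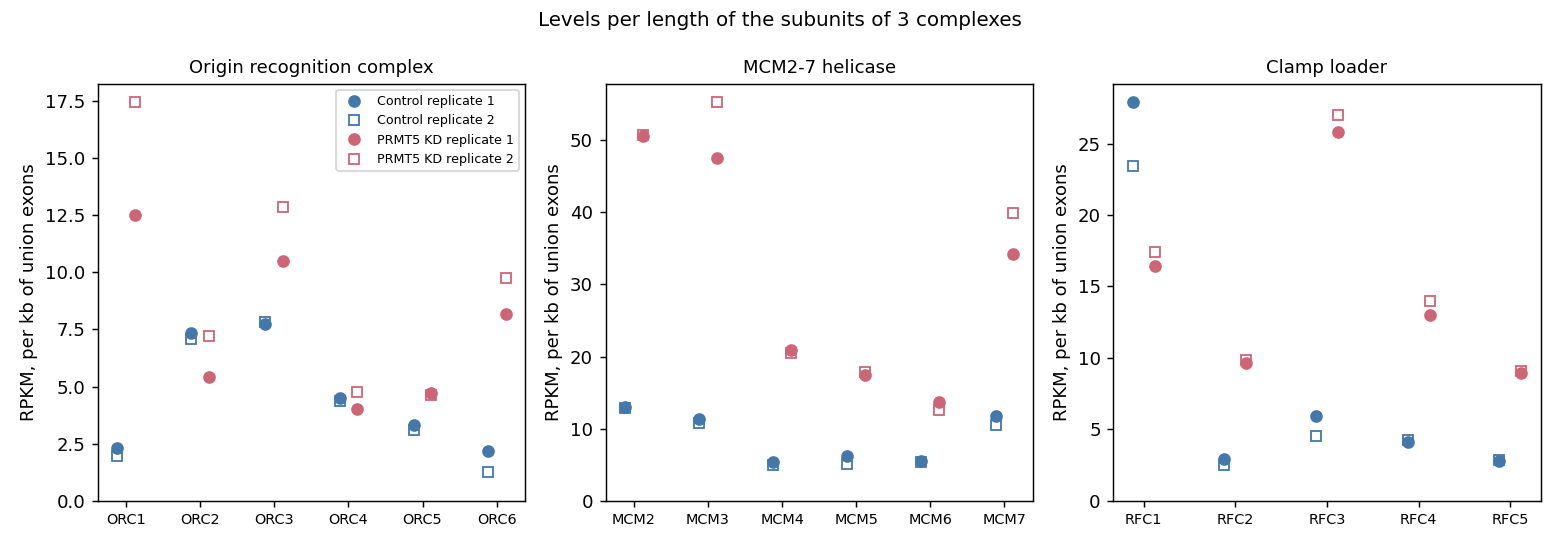
Level per length (RPKM, linear axes from 0) of the subunits of the origin recognition complex, the MCM2 to MCM7 helicase and the clamp loader, with each library as a point. ORC1 and ORC6 are the lowest of their complex in Control and ORC1 is the highest under the PRMT5 KD label, while RFC1 is the highest of the clamp loader in Control and falls to between RFC3 and RFC4.

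The loading factors and their inhibitor rose together, all 3 by a log2 fold change over 2. CDT1, which brings the MCM ring to the origin, was at 9.52 and 8.05 CPM in Control and at 62.0 and 71.7 CPM under the PRMT5 KD label. Its log2 fold change of 2.93 (SE 0.15, FDR = 0.000196) was the third largest of the 50 genes. GMNN, or geminin, which binds CDT1 and blocks loading again in the same S phase, was at 12.4 and 11.6 CPM in Control and at 51.4 and 58.9 CPM under the PRMT5 KD label. It rose by 2.20 (SE 0.13, FDR = 0.000234). In RPKM, CDT1 was at 0.690 and 0.622 of GMNN in Control and at 1.08 and 1.09 of it under the PRMT5 KD label, a ratio higher in both labelled libraries than in either Control library. Their order depended on the length used, since with the length of the longest transcript the ratio was 0.365 and 0.329 in Control but 0.573 and 0.577 under the PRMT5 KD label, below 1 in all 4 libraries. CDC6, an ATPase of the loading complex, was at 44.4 and 30.0 CPM in Control and at 155 and 146 CPM under the PRMT5 KD label. Control replicate 2 was the lowest, both labelled libraries were well above, and the log2 fold change was 2.02 (SE 0.20, FDR = 0.000733).

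All 6 subunits of the MCM2 to MCM7 helicase rose, with a median log2 fold change of 1.85. MCM3 had the largest change, from 41.2 and 39.4 CPM in Control to 173 and 202 CPM under the PRMT5 KD label. Its log2 fold change was 2.22 (SE 0.13, FDR = 0.000217). MCM2, also a carrier of parental histones, was at 61.6 and 60.8 CPM in Control and at 238 and 239 CPM under the PRMT5 KD label. Replicates of this gene were nearly equal within each label, and it rose by 1.96 (SE 0.11, FDR = 0.000210). MCM6 had the smallest change, from 22.8 and 22.2 CPM in Control to 56.6 and 51.8 CPM under the PRMT5 KD label. That is a log2 fold change of 1.27 (SE 0.12, FDR = 0.000515), still with no overlap. MCM4 went from 52.8 and 49.1 CPM in Control to 206 and 202 CPM under the PRMT5 KD label, and MCM7 and MCM5 rose by 1.73 and 1.64.

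The 6 proteins assemble into a ring with each present at a single copy, but their mean RPKM spanned 5.17 to 13.0 in Control and 13.1 to 51.4 under the PRMT5 KD label. The highest subunit was 2.51 times the lowest in Control and 3.92 times under the PRMT5 KD label. Under the PRMT5 KD label MCM6 was the lowest at 13.1 RPKM, and it was also the lowest there with the length of the longest transcript (14.4). The highest subunit depended on the length, being MCM3 at 51.4 RPKM with union exons and MCM2 at 69.5 with the longest transcript. Opposite-strand genes overlap 23.6% of the exon length of MCM2 (ENSG00000285600, a long noncoding RNA that the tables do not name) and 7.9% of that of MCM7 (AP4M1). Whether strand was used in counting is not given in the sources used here.

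Proteins that turn the loaded ring into the CMG helicase (CDC45, MCM2 to MCM7 and GINS) had the highest median of any role, 2.54, and all 6 were called higher. MCM10, which is needed for the last step of helicase activation, was at 9.47 and 7.75 CPM in Control and at 60.0 and 80.4 CPM under the PRMT5 KD label. It had the largest log2 fold change of the 50 genes at 3.03 (SE 0.20, FDR = 0.000282). In RPKM it stood at 0.198 and 0.179 of the median of MCM2 to MCM7 in Control and at 0.399 and 0.487 under the PRMT5 KD label. With the length of the longest transcript this ratio was 0.182 and 0.159 in Control but 0.285 and 0.351 under the PRMT5 KD label. The ratio was thus higher under the PRMT5 KD label with either length, but the size of its rise depended on the length used. CDC45, the helicase cofactor, rose by 2.54 (SE 0.16, FDR = 0.000256). Of the GINS tetramer, GINS1, GINS2 and GINS3 rose by 2.55, 2.54 and 2.40. GINS4 had a smaller change, from 10.5 and 8.23 CPM in Control to 20.02 and 23.2 CPM under the PRMT5 KD label, or 1.21 (SE 0.18, FDR = 0.00214). A long noncoding RNA on the opposite strand, ENSG00000253174, overlaps 21.0% of the exon length of GINS4, and another, ENSG00000276131, overlaps 10.9% of that of GINS3. The intervals of 1 SE around GINS4 and around the other 3 subunits did not meet, and the difference between subunits was not tested.

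All 4 firing factors rose, by log2 fold changes between 1.14 and 1.38. CDC7, the kinase that phosphorylates the MCM ring, was at 15.6 and 13.9 CPM in Control and at 35.2 and 41.5 CPM under the PRMT5 KD label. The groups were well apart, with a log2 fold change of 1.38 (SE 0.14, FDR = 0.000748). Its activating subunit DBF4 was at 10.9 and 9.55 CPM in Control and at 23.1 and 21.9 CPM under the PRMT5 KD label. DBF4 rose by 1.14 (SE 0.14, FDR = 0.00128), the smallest change of this role. TOPBP1, a scaffold of firing and of checkpoint signalling, was at 72.8 and 76.3 CPM in Control and at 166 and 163 CPM under the PRMT5 KD label. It rose by 1.14 (SE 0.11, FDR = 0.000530). RECQL4, a helicase of the same step, rose by 1.17 (SE 0.15, FDR = 0.00144).

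**Figure D4:**
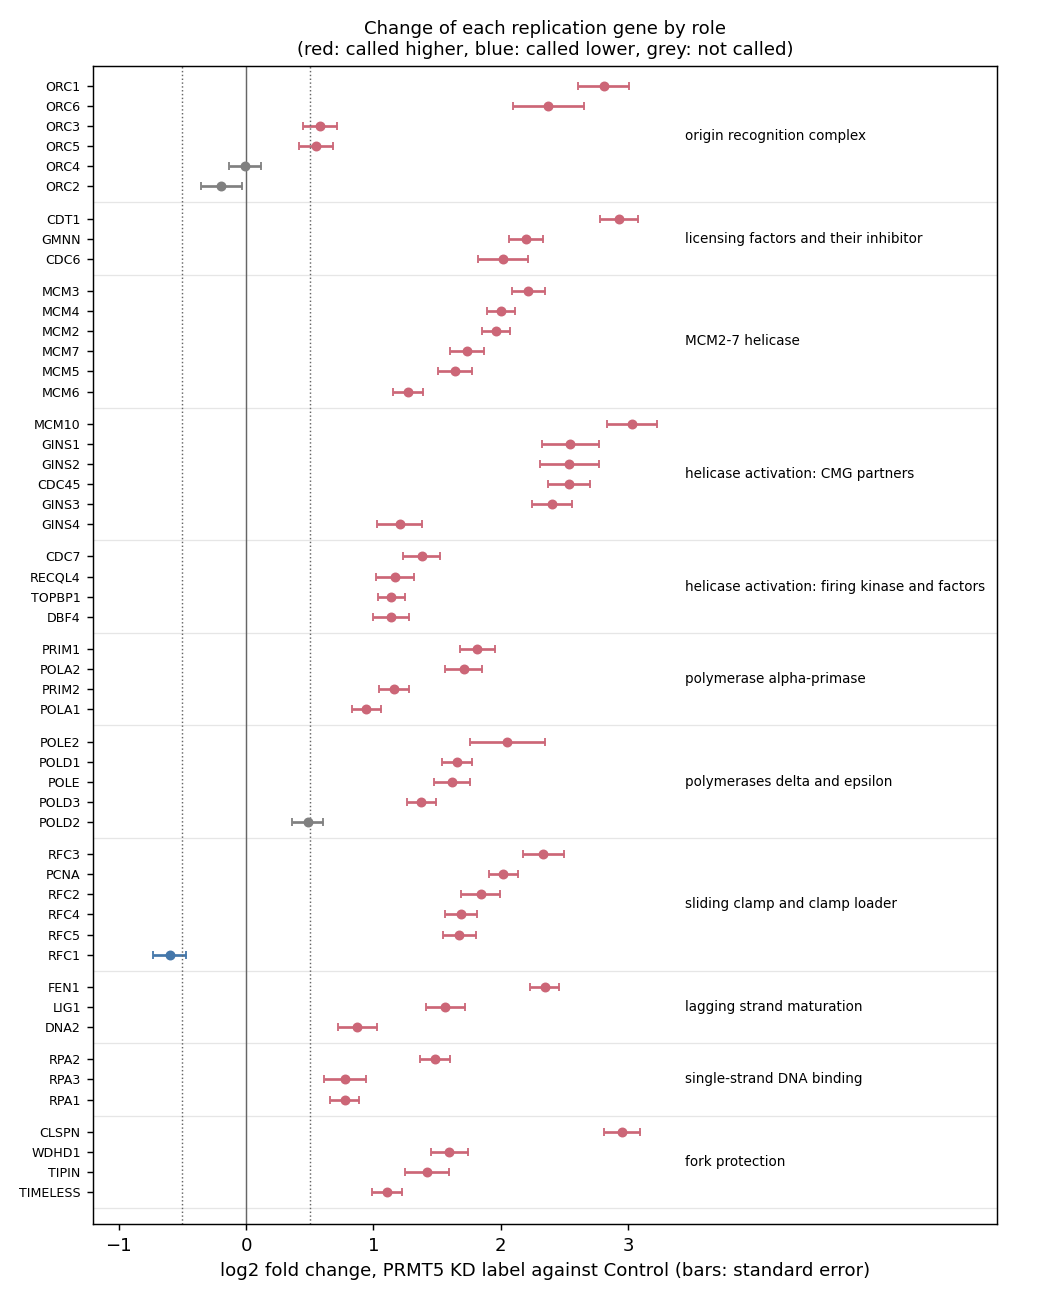
Log2 fold change of each gene (horizontal axis, PRMT5 KD label against Control, bars show the SE of the fit) grouped by role, with dotted lines at the threshold of 0.5 in each direction. CMG partners and licensing factors lie mostly above 2, RFC1 is alone past the lower line, and ORC2, ORC4 and POLD2 are not called.

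All 4 genes of polymerase alpha-primase, which starts each new strand with an RNA-DNA primer, rose. PRIM1, the catalytic primase, was at 6.62 and 6.45 CPM in Control and at 22.9 and 23.1 CPM under the PRMT5 KD label. Its log2 fold change of 1.82 (SE 0.14, FDR = 0.000336) was the largest of the 4. POLA2, the regulatory subunit, was at 27.8 and 23.2 CPM in Control and at 76.7 and 90.1 CPM under the PRMT5 KD label, a rise of 1.71 (SE 0.15, FDR = 0.000457). PRIM2, the regulatory primase, rose by 1.16 (SE 0.12, FDR = 0.000665). POLA1, the catalytic polymerase, had the smallest change, from 23.6 and 23.0 CPM in Control to 43.3 and 46.2 CPM under the PRMT5 KD label. It was called higher at 0.94 (SE 0.12, FDR = 0.00119). Protein-coding genes on the same strand overlap 16.8% of the exon length of POLA2 (ENSG00000285816) and 10.9% of that of PRIM1 (ENSG00000285625).

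Of 5 genes for polymerases delta and epsilon, 4 rose. POLE2, the accessory subunit of polymerase epsilon, was at 2.32 and 1.76 CPM in Control and at 6.64 and 10.2 CPM under the PRMT5 KD label. Its mean RPKM was 0.694 in Control and 2.87 under the PRMT5 KD label, the lowest of the 50 genes, and its counts were 92, 88, 316 and 490. The log2 fold change was 2.05 (FDR = 0.00198), with the widest SE of the 50 genes at 0.29. POLE, the leading strand polymerase, was at 52.8 and 43.8 CPM in Control and at 138 and 159 CPM under the PRMT5 KD label, a rise of 1.62 (SE 0.14, FDR = 0.000487). POLD1, the catalytic subunit of the lagging strand polymerase, rose by 1.65 (SE 0.12, FDR = 0.000318) and POLD3, an accessory subunit, by 1.38 (SE 0.11, FDR = 0.000419). A protein-coding gene on the same strand, ENSG00000142539, overlaps 8.6% of the exon length of POLD1.

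POLD2, the accessory subunit that ties POLD1 to the rest of polymerase delta, lay just outside the threshold. It was at 32.4 and 37.3 CPM in Control and at 48.1 and 49.5 CPM under the PRMT5 KD label. The groups did not overlap and the FDR was 0.0163 (SE 0.12), but the log2 fold change of 0.48 was under 0.5. It passed at 0.66 with library totals alone, at 0.54 with no filter, at 0.55 with filterByExpr, at 0.50 over all gene names, at 0.54 without PRMT5 KD replicate 1, and at 0.79 after offsets for exon length and GC content, with or without the replicate block. Its call thus depended on the setting.

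The sliding clamp and 4 of the 5 loader subunits rose, while the large loader subunit fell. PCNA, the ring that tethers polymerases, was at 59.6 and 62.7 CPM in Control and at 239 and 257 CPM under the PRMT5 KD label. It rose by 2.02 (SE 0.11, FDR = 0.000214), and in mean RPKM, where it was the highest of the 50 genes under both labels, it went from 43.6 to 177. The annotation names 3 pseudogenes each for PCNA, DBF4 and RPA2, and reads shared with them were not measured. RFC3, a small loader subunit, was at 17.0 and 12.9 CPM in Control and at 73.8 and 77.2 CPM under the PRMT5 KD label, a rise of 2.33 (SE 0.16, FDR = 0.000294). RFC2, RFC4 and RFC5, the other small subunits, rose by 1.84, 1.69 and 1.67.

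RFC1, the large subunit that sets this loader apart from the alternative loaders, was the single gene of the 50 called lower. It was at 187 and 157 CPM in Control and at 111 and 117 CPM under the PRMT5 KD label. Both labelled libraries lay below both Control libraries, with a log2 fold change of -0.60 (SE 0.13, FDR = 0.00874). The call was lost with library totals alone (-0.42) and without Control replicate 1 (-0.47, FDR = 0.0727), and the sign was the same under every setting tried. In RPKM, RFC1 stood at 7.91 and 6.61 times the median of RFC2 to RFC5 in the Control libraries and at 1.46 times in each library labelled PRMT5 KD. The mean RPKM of RFC1 went from 25.7 to 16.9, while RFC2 to RFC5 spanned 2.72 to 5.25 RPKM in Control and 9.02 to 26.4 RPKM under the PRMT5 KD label. With the length of the longest transcript the ratio was 6.82 and 6.87 in Control and 1.14 in each library labelled PRMT5 KD. RFC1 then had a mean of 23.3 under the PRMT5 KD label, below RFC4 at 27.9, so its place among the subunits there depended on the length.

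All 3 genes of lagging strand maturation rose. FEN1, the nuclease that trims flaps between Okazaki fragments, was at 30.9 and 28.7 CPM in Control and at 147 and 156 CPM under the PRMT5 KD label. Its log2 fold change was 2.35 (SE 0.12, FDR = 0.000196), and in mean RPKM it went from 13.6 to 68.9, the second highest level of the 50 genes under the PRMT5 KD label. LIG1, the ligase that seals the fragments, rose by 1.57 (SE 0.15, FDR = 0.000604). DNA2, a nuclease and helicase for long flaps, was at 27.3 and 23.1 CPM in Control and at 41.7 and 50.6 CPM under the PRMT5 KD label. It was called higher at 0.87 (SE 0.15, FDR = 0.00410) and lost its call without Control replicate 2 (FDR = 0.0543).

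RPA coats single-stranded DNA in replication, repair and recombination, and all 3 of its subunits rose. RPA2 was at 16.5 CPM in each Control library and at 45.6 and 46.5 CPM under the PRMT5 KD label, a log2 fold change of 1.48 (SE 0.12, FDR = 0.000362). RPA1, the large DNA-binding subunit, was at 62.4 and 66.3 CPM in Control and at 104 and 116 CPM under the PRMT5 KD label. It was called higher at 0.77 (SE 0.11, FDR = 0.00227). RPA3, the small subunit, was called higher at 0.77 (SE 0.16, FDR = 0.00845) and lost its call when either Control library was left out.

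Fork protection genes link the helicase to the checkpoint, and all 4 rose. CLSPN, or claspin, which carries the ATR signal to CHK1, was at 19.9 and 18.2 CPM in Control and at 134 and 161 CPM under the PRMT5 KD label. Its log2 fold change of 2.95 (SE 0.14, FDR = 0.000196) was the second largest of the 50 genes. TIMELESS, its partner at the fork, was at 55.5 and 48.1 CPM in Control and at 109 and 114 CPM under the PRMT5 KD label. It rose by 1.11 (SE 0.12, FDR = 0.000815), the smallest change of the 4. In RPKM, CLSPN stood at 0.219 and 0.231 of TIMELESS in Control and at 0.748 and 0.860 of it under the PRMT5 KD label. TIPIN, which binds TIMELESS, rose by 1.42 (SE 0.17, FDR = 0.00122), although 21.1% of its exon length overlaps the pseudogene RPL9P25 on the same strand. WDHD1, which couples polymerase alpha to the helicase, rose by 1.60 (SE 0.14, FDR = 0.000511).

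Of 35 other genes of replication and chromatin assembly at the fork, 26 (74.3%) were called higher and 1 lower, against 21.2% and 24.3% of all genes tested, and their median log2 fold change was 1.31. The largest were ASF1B, a histone chaperone, at 2.83, PCLAF, a PCNA-associated factor listed as KIAA0101, at 2.76, and DSCC1, a subunit of an alternative clamp loader, at 2.60. ASF1B was at 9.04 and 8.87 CPM in Control and at 57.6 and 69.7 CPM under the PRMT5 KD label, with an FDR of 0.000196. At the other end, POLD4, the smallest subunit of polymerase delta, was at 23.1 and 29.1 CPM in Control and at 16.4 and 9.26 CPM under the PRMT5 KD label. It was called lower at -1.03 (SE 0.29, FDR = 0.0296) and lost this call when either Control library was left out. MCM9, a helicase of the MCM family that works in repair, and ETAA1, an activator of ATR, each had a log2 fold change of -0.021 (FDR = 0.907 and 0.933). Of the other subunits of polymerase delta, POLD1 and POLD3 were called higher, and the call of POLD2 depended on the setting.

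Of 10 genes linked to cell cycle exit, 6 were called lower, none higher and 4 were not called, against 24.3% of all genes tested called lower. Their summed level was 604 and 731 CPM in Control and 405 and 333 CPM under the PRMT5 KD label. CDKN1C, an inhibitor of cyclin-dependent kinases, was at 3.64 and 5.47 CPM in Control and at 1.16 and 1.40 CPM under the PRMT5 KD label, a log2 fold change of -1.84 (SE 0.30, FDR = 0.00337). Its mean RPKM was 1.84 in Control and 0.515 under the PRMT5 KD label, close to the minimum of 0.5. In PRMT5 KD replicate 1, at 55 counts, CDKN1C fell under that minimum. It was thus tested through its Control level alone, where it was high, so its call could hardly have gone the other way. FOXO1, a transcription factor active in resting cells, was called lower at -1.39 (SE 0.21, FDR = 0.00236). CDKN1B, which codes for the inhibitor p27, had a log2 fold change of -0.41 (SE 0.12, FDR = 0.0282) and was not called.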

How the data were processed

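Estimated counts per gene, deposited by the authors as 1 table per library, are not normalized: between 86.0% and 86.8% of the values are whole and the rest carry decimals. The submitters' processing notes name FastQC, Trim Galore, STAR, Salmon, DESeq2 and GRCh38, with no roles. The paper's methods describe STAR alignment, FeatureCounts on Gencode protein-coding genes and DESeq2 for the comparison. Which program made the deposited tables, and whether a directional kit was counted by strand, is not given in the sources used here. Of 29744 entries, 28 with names turned into dates were left out (0.150% to 0.161% of the counts). Names were matched to GENCODE 44 by symbol (21877), by RefSeq symbol or gene number (1118) or by unique synonym (1542).

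Counts were rounded. The test covered protein-coding genes whose RPKM reached 0.5 in both libraries of a group, with the edgeR 4.0.16 quasi-likelihood model (TMM scaling, robust dispersion) in R 4.3.3. Calls needed an FDR (Benjamini-Hochberg) under 0.05 and a log2 fold change past 0.5 in either direction, as in the paper's methods. The paper's results section names a stricter cut, an absolute log fold change of at least 1, which is the alternative threshold used here. CPM values use TMM-scaled library sizes over the genes tested. Standard errors come from the fold change and its F statistic. The procedure was tested on simulated data in which far fewer genes changed than were called here. Scaling and FDR under a shift this broad were therefore not tested. Intervals and errors do not cover PCR copies, which are not independent molecules.

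The genes and lists were chosen with earlier results of these data known, so no set test was run. Within each role, the genes with the largest and smallest log2 fold change, the highest mean CPM and those not called higher are given by library. ORC5 is given by library as the gene just inside the threshold. Of the other replication genes, the 3 largest and 3 smallest changes are named, and of the cell cycle exit genes those named were chosen after their values were seen. Promoters shown were chosen after their values were seen. A planned search of protein sequences for PCNA-binding motifs was not run, since no protein table was used here.

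Alternatives were DESeq2 1.42.0, RLE factors, library totals alone, no filter, filterByExpr, all gene names, non-robust dispersion, a threshold of 1, offsets from splines of GC content and exon length (4 degrees of freedom each), a replicate block, the longest transcript as length for ratios of RPKM (chosen after seeing the data), and each library left out in turn. Nothing in the labels says that replicate numbers pair the libraries.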

Additional observations from a re-analysis of the deposited data

How the results depend on the processing

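The count of genes called higher (46) lay between 45 and 47 under the other tests, scalings, filters and offsets, at 40 with the threshold of 1, and from 42 to 47 when single libraries were left out. The count called lower was 0 with library totals alone, 0 at the threshold of 1 and from 0 to 1 when single libraries were left out, and that of the other replication genes was then also from 0 to 1. The median log2 fold change was 1.82 with library totals alone, where 61.4% of all calls were higher in place of 46.6%, and from 1.59 to 1.75 when single libraries were left out. Without Control replicate 1 or 2, 14.5% and 11.3% of all genes were called higher. ORC4 changed sign, with no call, under DESeq2 (0.00075), RLE factors (0.00074), library totals (0.17), no filter (0.045), filterByExpr (0.057), all gene names (0.011), length and GC offsets (0.15, and 0.14 with the replicate block) and with libraries left out (-0.13 to 0.15). ORC2 ranged from -0.41 to 0.036 with a library left out and changed sign without PRMT5 KD replicate 1. The cause of these changes was not tested.

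With the replicate block 46 genes were called higher and 1 lower, and the median was 1.65. The block gave 2399 genes higher and 2776 lower over all genes and changed no call among the 50. Deviations of libraries with the same number had a correlation of -0.101 over 11904 genes, so a crossed pairing, chosen after seeing the data, was fitted too and gave 2546 higher and 2940 lower.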
